A study of Mus musculus with 27 samples.

Results

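The collagen genes of the mouse intestine were followed through tissue and organoids of the colon and the jejunum. They were taken as every gene whose symbol has the form of a collagen alpha chain (Col, a type number, a and a chain number), and there were 44 of them among the 23420 genes of the count table. By the kind of structure they build, 11 were fibrillar chains, 9 belonged to the basement membrane zone (the thin sheet under an epithelium, and the fibrils that anchor it) and 24 were of other types. Each of the 44 symbols was found in GENCODE vM21, which annotates GRCm38 (mm10).

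The mice were of the C57BL/6 strain and drank water (control) or 15% ethanol for 8 weeks, and their age is not given in the labels used here. The 27 libraries, made with a kit that sequences the 3' end of messenger RNA, fall into 8 groups. Whole colon tissue had 4 control and 4 ethanol libraries, and whole jejunum tissue 3 control and 4 ethanol libraries. Organoids, which are cultures grown from the stem cells of intestinal crypts, had 2 control and 2 ethanol libraries from the colon and 4 and 4 from the jejunum. The ethanol label of an organoid library names the treatment of the mice, and no label states that ethanol was in the culture. The labels number the donors of a group but do not say whether a library is 1 mouse, so that p-values measure the spread between these libraries.

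Collagens are secreted proteins whose chains wind around one another into a stiff helix. The fibrillar types, above all I and III, form the cables of the connective tissue and are made mostly by fibroblasts and smooth muscle, type IV forms the net of basement membranes, and type VI forms fine filaments between them. The epithelium of the gut contributes to its own basement membrane.

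Promoter windows are shown first for 5 genes on which the results turn. Col4a1 and Col4a2, the main chains of type IV collagen, lie head to head (chr8:11198423-11312826 and chr8:11312805-11449287) and their start sites are 20 bases apart, so that the windows of 250 bases before and 50 bases after each start share 78 bases. Col1a2 (chr6:4504814-4541544) encodes a chain of type I collagen and had the highest mean of the 44 in tissue. Col27a1 (chr4:63214004-63334991) is the fibrillar chain that was highest in colon organoids, and Col7a1 (chr9:108953586-108984875), the chain of the anchoring fibrils, was the 1 gene of the family called lower in colon than in jejunum tissue. Sequences are from RefSeq on GRCm38.p6, printed along the strand of the gene, and capitals mark matches to CCAAT, the box bound by the factor NF-Y, to the GC box GGGCGG, bound by factors such as Sp1, and to the common form of the start site element, TATAAA. Each was searched on both strands, so that a match on the opposite strand reads as its reverse complement, and no marked matches overlap in the windows shown. Gene spans are those of GENCODE, and windows and their start sites those of RefSeq. For Col1a2 and Col27a1 the window lies inside the span, downstream of its first base.
Col4a2 promoter, chr8:11312555-11312854, plus strand: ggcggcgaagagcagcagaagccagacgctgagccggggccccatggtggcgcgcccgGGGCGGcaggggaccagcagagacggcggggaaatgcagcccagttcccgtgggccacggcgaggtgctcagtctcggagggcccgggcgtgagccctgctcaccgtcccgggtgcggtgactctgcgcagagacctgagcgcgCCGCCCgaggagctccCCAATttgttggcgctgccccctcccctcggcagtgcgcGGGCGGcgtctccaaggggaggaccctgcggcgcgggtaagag
Col4a1 promoter, chr8:11312777-11313076, minus strand: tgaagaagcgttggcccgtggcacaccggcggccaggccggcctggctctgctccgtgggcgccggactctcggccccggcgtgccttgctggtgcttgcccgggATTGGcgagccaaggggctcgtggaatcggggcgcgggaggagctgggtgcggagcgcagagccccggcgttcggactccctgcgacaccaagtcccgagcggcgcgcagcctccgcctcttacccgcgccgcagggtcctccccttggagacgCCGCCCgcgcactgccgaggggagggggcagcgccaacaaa
Col1a2 promoter, chr6:4505368-4505667, plus strand: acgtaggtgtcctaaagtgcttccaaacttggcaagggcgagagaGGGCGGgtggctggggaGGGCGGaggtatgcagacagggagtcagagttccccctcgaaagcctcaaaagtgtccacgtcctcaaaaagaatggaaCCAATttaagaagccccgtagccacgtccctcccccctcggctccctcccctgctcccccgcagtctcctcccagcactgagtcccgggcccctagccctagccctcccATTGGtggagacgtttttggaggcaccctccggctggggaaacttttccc
Col27a1 promoter, chr4:63215162-63215461, plus strand: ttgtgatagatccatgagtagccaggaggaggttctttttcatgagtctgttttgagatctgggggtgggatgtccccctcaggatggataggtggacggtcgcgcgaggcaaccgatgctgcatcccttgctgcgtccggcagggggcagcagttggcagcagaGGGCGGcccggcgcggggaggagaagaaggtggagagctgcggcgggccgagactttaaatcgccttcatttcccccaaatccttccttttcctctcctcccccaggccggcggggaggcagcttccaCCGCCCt
Col7a1 promoter, chr9:108953336-108953635, plus strand: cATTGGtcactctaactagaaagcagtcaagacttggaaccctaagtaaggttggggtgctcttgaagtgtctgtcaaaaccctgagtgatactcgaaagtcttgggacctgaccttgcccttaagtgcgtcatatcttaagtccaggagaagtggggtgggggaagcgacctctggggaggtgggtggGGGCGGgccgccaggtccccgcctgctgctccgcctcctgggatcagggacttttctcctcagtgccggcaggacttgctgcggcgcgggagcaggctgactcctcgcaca

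Of the 44 genes, 35 were found in the promoter table, with 38 windows. CCAAT in either orientation was in 13 of the 38 windows (34.2%) and in 37.4% of all 32851 windows of the table. GGGCGG was in 23 of 38 (60.5%) against 35.7% of all windows, and TATAAA in 5 of 38 (13.2%) against 13.6%. Both windows of the Col4a1 and Col4a2 pair held CCAAT and GGGCGG, and neither held TATAAA. The GGGCGG of the Col4a1 window lies in the shared bases, so that the same site is also counted in the Col4a2 window. In the Col1a2 window, CCAAT began 109 bases before the RefSeq start site and again, on the opposite strand, at its first base, and 2 copies of GGGCGG lay further upstream. A match of letters is a description and not a site of binding. Col4a5 and Col4a6, another type IV pair, also lie head to head, on chromosome X, with 1342 bases between their start sites.

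Levels are given in CPM, the counts of a gene scaled to a common total of counts outside Rn45s. Rn45s, the ribosomal RNA precursor, took 18.3 to 84.3% of a library, with the highest shares in control jejunum tissue (76.3 to 84.3%). Depth outside Rn45s ran from 684906 to 7606668 counts, so that 1 count was worth 0.131 to 1.46 CPM. It was lowest in control jejunum tissue (684906 to 1510057) and in colon organoids (818240 to 2843857). The kit gives 1 tag per transcript, so that levels of different genes were set side by side with no division by length. Whether 3' ends of different genes were captured and mapped equally was not tested. No 2 libraries held the same counts. In whole tissue, fewer cells of a type and less RNA per cell cannot be told apart.

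The summed level of the 44 genes was highest in colon tissue and near 0 in jejunum organoids. Per library it was 3927, 1324, 1390 and 1464 CPM in control colon tissue and 2369, 742, 1065 and 1491 CPM in ethanol colon tissue. Jejunum tissue had 334, 657 and 458 CPM in controls and 303, 224, 552 and 515 CPM with ethanol. Each of the 8 colon tissue libraries lay above each of the 7 jejunum tissue libraries. Colon organoids had 511 and 904 CPM in controls and 355 and 275 CPM with ethanol. Jejunum organoids had 5.71 to 13.0 CPM in controls and 3.2 to 5.27 CPM with ethanol.

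The first control library of colon tissue stood apart, with 3927 CPM against 1324 to 1464 CPM in the other control libraries. In the same library the summed level of 8 smooth muscle markers was 18444 CPM (4538 to 5886 CPM in the other 3) and that of 8 fibroblast markers 2199 CPM (819 to 882 CPM). The first ethanol library of colon tissue was likewise the highest of its group in both sums, with 24270 CPM (4652 to 6243 CPM) and 2060 CPM (696 to 954 CPM). Across tissues the smooth muscle sum was 4538 to 24270 CPM in colon and 678 to 3364 CPM in jejunum, and the fibroblast sum 696 to 2199 CPM and 183 to 697 CPM, with each of the 8 markers of both lists detected in every tissue group. Hoxb13, a gene of the most distal colon, was above 100 CPM in 3 colon tissue libraries, the first control library (183 CPM) and the first (182 CPM) and second (801 CPM) ethanol libraries. The part of these cells and of the position along the colon in the levels below was not tested. The totals of called collagens and some single results that rest on these libraries are given with and without them. Counts by class, medians between segments, most single fold changes, the related gene lists and the correlations are given only with them.

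**Figure D1:**
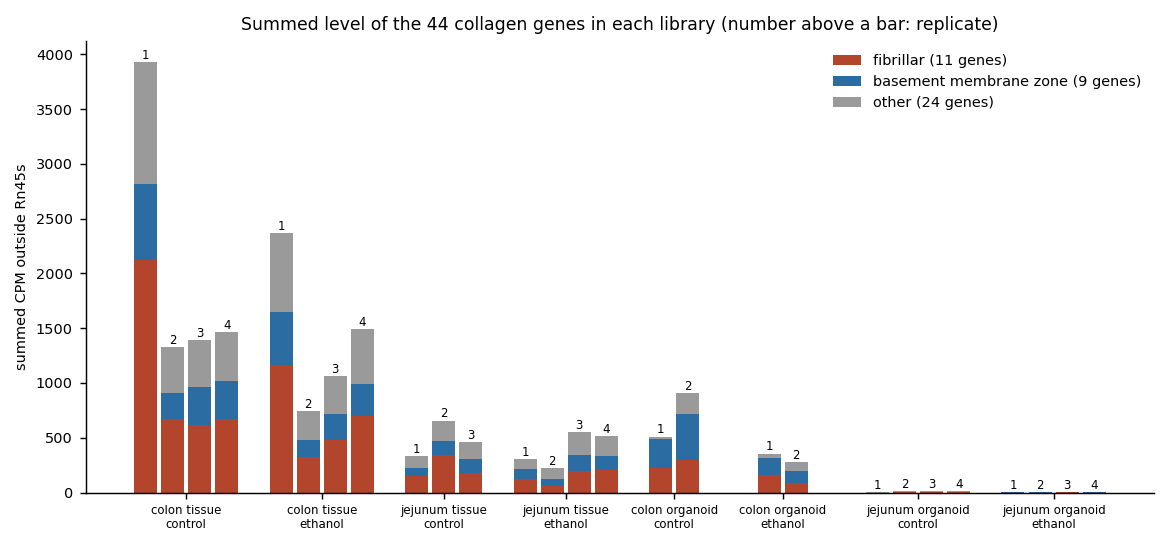
Summed CPM outside Rn45s (vertical axis) of the 44 collagen genes in each of the 27 libraries, with fibrillar, basement membrane zone and other genes stacked and the replicate number above each bar. Colon tissue stands highest, with 742 to 3927 CPM, and jejunum organoids hold at most 13.0 CPM.

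Fibrillar genes made up 48.7% of the collagen counts in control colon tissue, 46.2% in ethanol colon tissue, 45.7% in control jejunum tissue and 36.1% in ethanol jejunum tissue, as means over the libraries. Basement membrane zone genes made up 20.7 to 27.5% in the same groups. In colon organoids basement membrane zone genes made up 49.8% in controls and 41.1% with ethanol, and fibrillar genes 38.0% in both, as means. The basement membrane zone sum was above the fibrillar sum in 3 of the 4 libraries, and in the first ethanol library it was 154 CPM against 159 CPM. In jejunum organoids shares rest on 14 to 55 counts a library and are not given.

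Type I and III collagen led the fibrillar class in tissue. Col1a2 was at 671, 202, 251 and 233 CPM in control colon tissue and at 293, 107, 194 and 278 CPM with ethanol, and in jejunum tissue at 55.9, 107 and 66.2 CPM and at 40.0, 23.9, 72.4 and 61.3 CPM. Col3a1, the chain of type III collagen, was at 684, 229.6, 156 and 192 CPM and at 442, 77.5, 118 and 222 CPM in colon, and at 10.2, 81.8 and 23.8 CPM and at 21.9, 12.2, 31.7 and 62.8 CPM in jejunum. Col1a1, the partner of Col1a2, was at 424, 115, 108 and 125 CPM and at 190.4, 67.0, 77.0 and 93.5 CPM in colon, and at 21, 84.7 and 39.1 CPM and at 19.1, 5.84, 32.0 and 28.1 CPM in jejunum. For Col1a2 the colon libraries lay above the jejunum libraries in controls and with ethanol, whereas the control ranges of Col1a1 came close (at least 108 CPM in colon, at most 84.7 CPM in jejunum) and the ethanol ranges were further apart.

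The minor fibrillar chains, which help to set fibre width, were lower. Col5a1, of type V, was at 116, 39.3, 38.1 and 36.1 CPM and at 57.6, 24.6, 29.5 and 38.5 CPM in control and ethanol colon tissue, and at 39.2, 32.1 and 17.9 CPM and at 19.1, 10.9, 14.9 and 20.6 CPM in jejunum tissue. Its partner Col5a2 was at 126, 38.5, 25.0 and 30.2 CPM and at 88.0, 14.1, 19.8 and 30.9 CPM in colon, and at 10.9, 8.76 and 6.62 CPM and at 6.67, 0.797, 7.77 and 11 CPM in jejunum. Col5a2 thus lay apart between the segments in both treatments, and Col5a1 overlapped in controls.

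Col27a1, a chain of thin fibrils known from cartilage, was at 63.5, 31.1, 27.7 and 33.9 CPM and at 72.6, 23.2, 30.7 and 31.4 CPM in colon tissue. In jejunum tissue it was at 10.9, 30.7 and 17.2 CPM and at 15.2, 3.98, 32.4 and 17.5 CPM, so that the segments overlapped. Of the other fibrillar genes, Col2a1, the main chain of cartilage, had no count in the 8 colon tissue libraries, and Col11a1 stayed between 0 and 5.83 CPM in tissue.

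In the basement membrane zone, type IV collagen led. Col4a1 was at 387, 129, 172 and 171 CPM and at 297, 79.4, 111 and 137 CPM in control and ethanol colon tissue, and at 36.3, 40.9 and 77.5 CPM and at 44.8, 35.3, 83.8 and 73.1 CPM in jejunum tissue. Col4a2 was at 196, 67.9, 111 and 108 CPM and at 137, 52.9, 74.4 and 77.6 CPM in colon, and at 16.0, 52.6 and 23.8 CPM and at 27.6, 19.9, 49.0 and 34.0 CPM in jejunum. Control ranges of both genes were apart between the segments, and with ethanol the ranges of Col4a1 overlapped.

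The rarer type IV chain Col4a5 was at 15.1, 4.24, 10.1 and 9.74 CPM and at 4.09, 3.37, 8.45 and 15.4 CPM in colon tissue, and at 0 to 1.71 CPM in the 7 jejunum tissue libraries. Col18a1, a basement membrane collagen whose end fragment is endostatin, was at 46.9, 21.2, 20.8 and 27.2 CPM and at 27.3, 11.7, 19.1 and 37.8 CPM in colon, and at 3.63, 1.46 and 5.30 CPM and at 5.71, 5.05, 8.85 and 9.99 CPM in jejunum. Both genes were apart between the segments in both treatments.

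Col7a1 went the other way. It was at 7.98, 16.1 and 11.9 CPM in control jejunum tissue and at 1.42, 1.70, 2.19 and 1.83 CPM in control colon tissue, and with ethanol at 1.91, 2.92, 3.02 and 0.394 CPM in jejunum and at 0.455, 0.991, 0.899 and 0.586 CPM in colon. The 3 control jejunum libraries were thus the highest of the 15 tissue libraries, although 1 count there is worth 0.662 to 1.46 CPM.

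Of the other types, the filaments of type VI were the most abundant in tissue. Col6a3 was at 279, 137, 131 and 115 CPM and at 238, 60.6, 116 and 153 CPM in control and ethanol colon tissue, and at 21, 42.3 and 40.4 CPM and at 15.2, 24.2, 62.2 and 46.9 CPM in jejunum tissue. Col6a1 was at 204, 76.6, 109 and 123 CPM and at 85.5, 38.2, 82.4 and 100.1 CPM in colon, and at 34.1, 38.0 and 43.7 CPM and at 22.4, 24.2, 54.2 and 42.3 CPM in jejunum. Col6a2 was at 142, 58.8, 54.0 and 70.4 CPM and at 64.2, 23.4, 56.5 and 83.7 CPM in colon, and at 13.8, 29.2 and 17.9 CPM and at 9.05, 8.23, 32.2 and 24.8 CPM in jejunum. The control segments were apart for all 3 chains, and the ethanol segments overlapped for all 3.

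Col6a4, a further type VI chain, did not follow them, with 5.35, 6.22, 8.78 and 9.74 CPM and 0.910, 0.594, 8.27 and 15.7 CPM in colon and 5.96 to 17.9 CPM in jejunum. Col16a1, a collagen that decorates fibrils, was at 117, 43.5, 34.0 and 34.3 CPM and at 111, 66.2, 33.4 and 44.4 CPM in colon, and at 1.45, 19.0 and 15.9 CPM and at 3.81, 6.37, 13.0 and 7.36 CPM in jejunum. Col12a1, which also binds the surface of fibrils, was at 88.2, 33.9, 26.9 and 24.0 CPM and at 70.8, 17.0, 14 and 23.4 CPM in colon and at 1.46 to 9.73 CPM in jejunum. Col8a1, a short-chain collagen, was at 145, 28.3, 12.6 and 25.4 CPM and at 51.0, 30.5, 5.93 and 17.7 CPM in colon and at 0 to 1.45 CPM in jejunum. The last 3 genes were apart between the segments in both treatments.

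**Figure D2:**
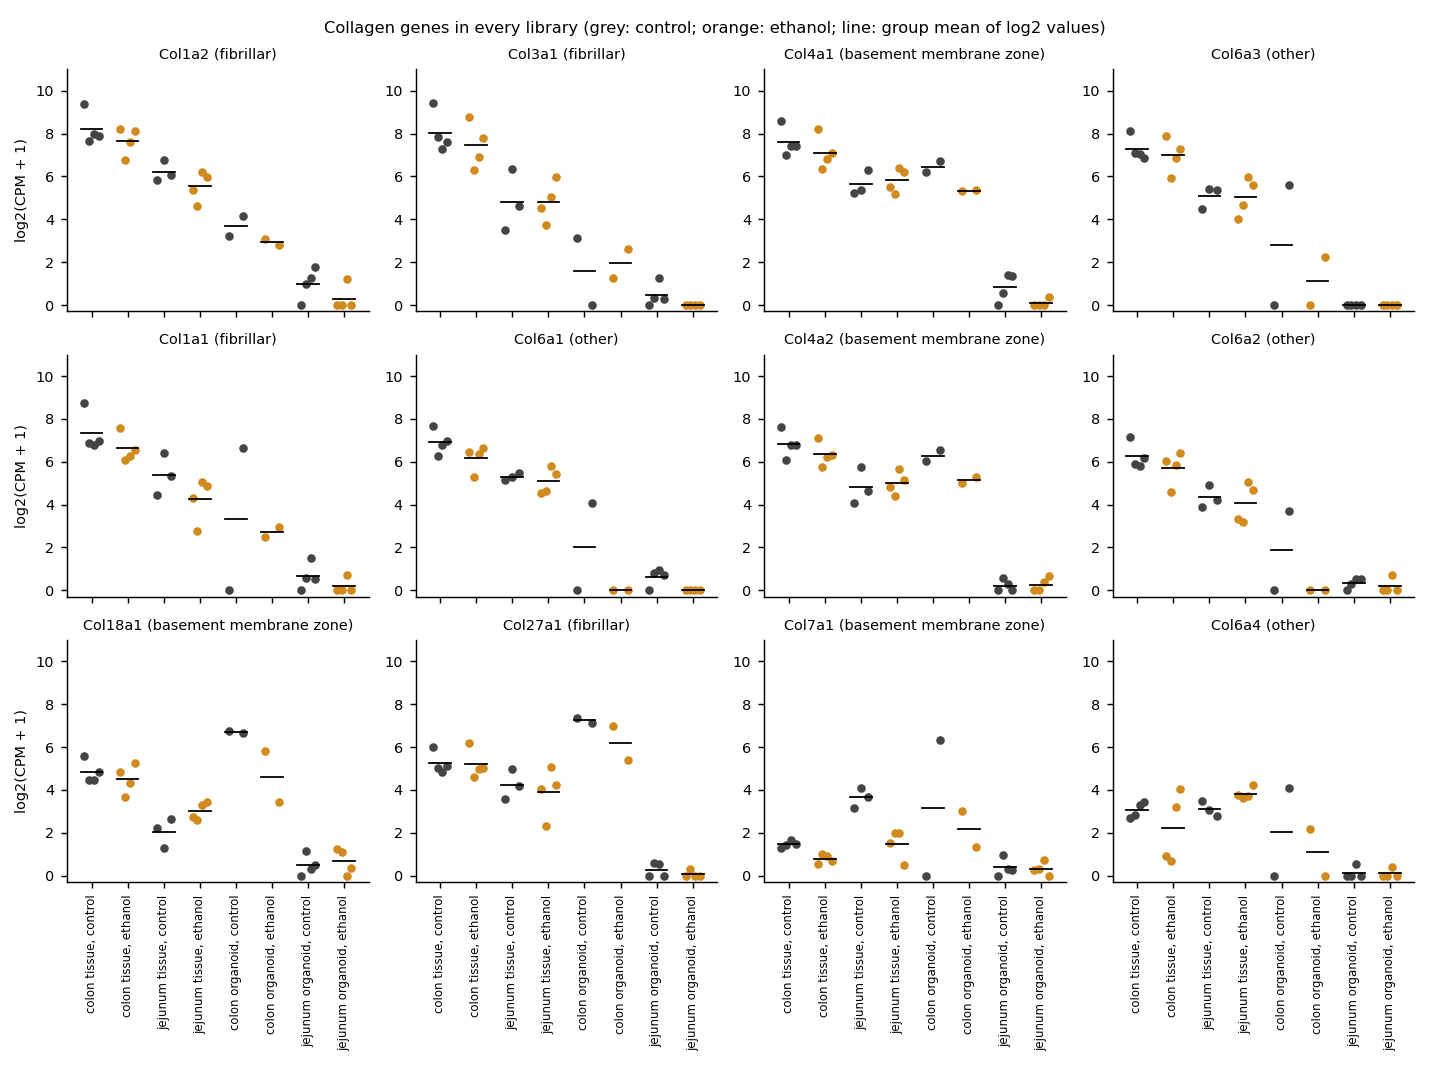
Level of 12 collagen genes, as log2(CPM outside Rn45s + 1), in each library of the 8 groups (grey control, orange ethanol; the line is the group mean of the log2 values). Col27a1 and Col18a1 are highest in control colon organoids, Col7a1 in tissue is highest in control jejunum, and Col1a2 and Col3a1 stand highest in colon tissue.

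Within tissue groups the genes varied together. Correlations were taken over 15 libraries on deviations of log2(CPM + 1) from the group mean, for the 21 genes with a mean of at least 5 CPM, and are a description, since the libraries also differ in muscle and fibroblast markers. The first control and first ethanol colon tissue libraries, which had the highest collagen sums of their groups, are included. The correlations were not repeated without them. The median Pearson's r over 210 pairs was 0.549, against 0.0358 for all 9873 genes of that level. It was 0.751 among fibrillar genes and 0.331 among basement membrane zone genes. The closest pair was Col1a1 with Col27a1 (r = 0.947), followed by Col1a2 with Col6a2 (0.927) and Col1a1 with Col3a1 (0.915). Among pairs that assemble with each other, Col6a1 with Col6a2 had 0.914, Col1a1 with Col1a2 0.907 and Col4a1 with Col4a2 0.727. Col1a1 correlated with the fibroblast sum at 0.908 and with the smooth muscle sum at 0.893. Col6a4 stood apart, with a median r of -0.0618 with the other 20 genes. Col4a5, detected in 3 of 7 jejunum tissue libraries, had 0.0356 with the smooth muscle sum and 0.715 with the endothelial sum. Col18a1 and Col6a1 had like values with the endothelial sum (0.715 and 0.716).

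Chains that assemble with each other were set against each other within each library. Col1a1 over Col1a2 was 0.542 ± 0.0842 (SD, n = 4) in control colon tissue, 0.502 ± 0.159 (n = 4) in ethanol colon tissue, 0.587 ± 0.209 (n = 3) in control jejunum tissue and 0.405 ± 0.108 (n = 4) in ethanol jejunum tissue. Col4a1 over Col4a2 had a median of 1.77 over the 15 libraries and ran from 1.5 to 2.17 in colon and from 0.778 to 3.25 in jejunum, where counts are fewer. In the first control colon library the ratio of Col4a1 to Col4a2 was 1.97, within the range of the other colon libraries.

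Colon and jejunum tissue were compared first, in each treatment. In controls, 15 genes were higher and 1, Col7a1, was lower in colon among the 30 that passed the filter on low counts, where 42.2% of all 13405 genes tested were called at an adjusted p under 0.05 (edgeR's quasi-likelihood test, 23% higher and 19.2% lower). By class, 3 of 8 fibrillar, 5 of 7 basement membrane zone and 7 of 15 other genes were higher. The median log2 fold change was 1.59, 1.66 and 1.38 in these classes and 1.53 over the 30, against 0.24 over all genes. With ethanol 11 were higher and Col7a1 was lower, against 48.4% of all genes called (24.8% higher, 23.6% lower), and the median was 1.02 against 0.11.

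The other 14 genes of the family had too few counts in tissue to be tested, and 9 of them (Col6a6, Col9a1, Col9a3, Col10a1, Col11a2, Col17a1, Col22a1, Col26a1 and Col28a1) were tested in no comparison; the highest of these was Col11a2, at 19.6 CPM in the second control colon organoid library. Only 18 of the 30 would pass the filter in jejunum tissue alone, so that for the rest the test rests on the colon. Among the rest were Col8a1, Col4a5, Col5a3, Col15a1 and Col25a1, called higher in controls, and Col8a1, Col4a5 and Col15a1, called higher with ethanol. They entered through the colon libraries, where they are high. Their calls, and their part in the counts and medians above, are thus no support in themselves. CPM without TMM scaling shift all colon to jejunum differences up by 0.50 in controls and 0.59 with ethanol (log2).

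The largest differences in controls, from edgeR with adjustment over all genes, were those of Col8a1 (log2 fold change 6.84, SE 1.5, adjusted p = 0.00219), Col4a5 (3.55 ± 1.23, 0.0275), Col5a3, a type V chain (2.97 ± 0.77, 0.00526), Col3a1 (2.63 ± 0.83, 0.0224), Col12a1 (2.56 ± 0.74, 0.0109) and Col18a1 (2.37 ± 0.55, 0.00209). Col1a2 was higher by 1.64 ± 0.46 (0.00882) and Col4a2 by 1.53 ± 0.41 (0.00658), and Col7a1 had -3.2 ± 0.61 (0.000445). In control jejunum tissue Col8a1 had 1 count and Col4a5 had 2, so that the ratio of pooled CPM was 230.1 (95% counting interval 41.2 to 9098) for Col8a1 and 19.0 (5.18 to 158) for Col4a5. Col25a1, a membrane-bound collagen, had no count in control jejunum tissue and was at least 4.84-fold higher in colon, taking 3 counts in the whole jejunum group as the most that a count of 0 allows. With edgeR, Col1a1 (1.53 ± 0.62, adjusted p = 0.0597) and Col27a1 (0.55 ± 0.55, 0.44) were not called.

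With ethanol the largest were Col8a1 (4.42 ± 0.91, adjusted p = 0.001 with edgeR), Col4a5 (2.70 ± 0.81, 0.00987), Col16a1 (2.38 ± 0.53, 0.00169), Col3a1 (2.09 ± 0.70, 0.0249), Col5a2 (1.86 ± 0.67, 0.0336) and Col12a1 (1.76 ± 0.56, 0.0163). Col7a1 was lower by -1.99 ± 0.61 (0.0119), and Col4a1 was not called (0.77 ± 0.41, 0.132). CPM ranges of the segments were apart for 19 higher genes and 1 lower gene in controls, where 42.4% and 12.3% of all genes were so (54.7% either way), and for 14 higher genes with ethanol (40.3% of all genes higher, 11.5% lower and 51.8% either way).

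Col8a1, Col5a3, Col18a1, Col1a2, Col4a2 and Col7a1 in controls, and Col8a1, Col16a1, Col4a5 and Col1a2 with ethanol, were called in every alternative fit that was run. Each of the other calls was lost in at least 1 alternative. The limit of the filter given above holds for Col8a1 and Col5a3 in controls and for Col8a1 and Col4a5 with ethanol. Col3a1 in controls had an adjusted p of 0.058 without the first control colon library, 0.0804 without the first control jejunum library and 0.0786 without the third. The count of called genes fell from 16 to 7 without the first control jejunum library, and was 11 without the first control colon library. With ethanol it fell from 12 to 5 without the first ethanol colon library and to 7 without the first or without the second ethanol jejunum library.

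**Figure D3:**
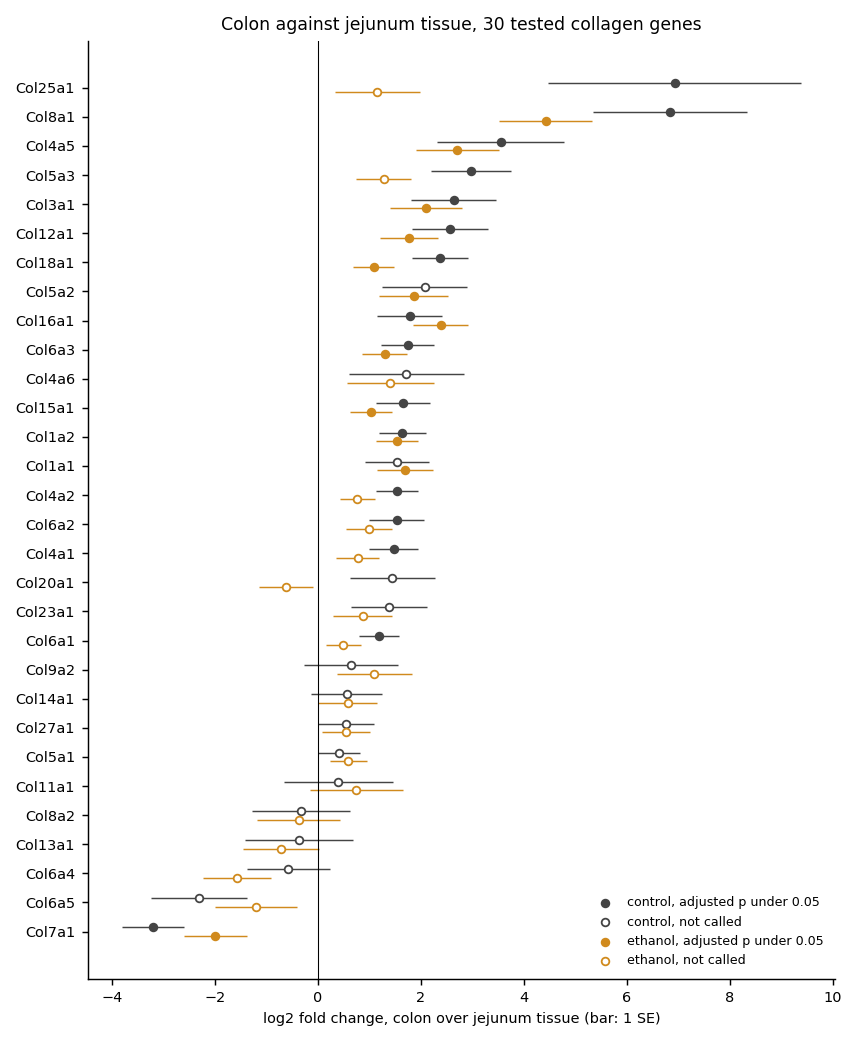
Log2 fold change of colon over jejunum tissue (horizontal axis, bars 1 SE) for the 30 tested collagen genes in control (grey) and ethanol (orange) mice, with filled points for an adjusted p under 0.05. Most points lie right of 0 and Col7a1 lies left of it in both. The control value of Col25a1 is against a group without counts.

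Genes that make, bind or cut collagen were counted in the same fits, where 23% of all genes were called higher and 19.2% lower in controls, and 24.8% and 23.6% with ethanol. Of 22 tested genes of collagen synthesis and secretion, 10 were higher and 2 lower in control colon than in control jejunum tissue, among them Crtap, part of the prolyl hydroxylation complex (2.88 ± 0.55, adjusted p = 0.000438 with edgeR), and Pcolce, which speeds the trimming of procollagen (2.61 ± 0.76, 0.0102). Of 24 partners in fibres and basement membrane, 11 were higher, such as Sparc (2.31 ± 0.50, 0.00166) and Dcn (2.70 ± 0.73, 0.00983), which bind collagen. The 3 lower ones were the basement membrane genes Agrn (-2.14 ± 0.30, 2.00e-05), Lama5 (-1.23 ± 0.35, 0.00959) and Lama3 (-1.13 ± 0.44, 0.0472). Receptors had 4 higher of 9, among them Ddr2 and Itgb1, crosslinking enzymes 1 of 5 (Pxdn, which crosslinks type IV collagen), and genes of TGF-beta signalling 4 higher and 2 lower of 12. Matrix proteases and inhibitors had 2 higher and 3 lower of 12, with Mmp10 at -5.21 ± 0.75 (2.79e-05). The median log2 fold change was 1.26 for synthesis, 1.5 for partners, 1.54 for receptors, 1.37 for crosslinking, 1.74 for TGF-beta signalling and 0.60 for proteases, against 0.24 over all genes. Dcn is also 1 of the fibroblast markers above. With ethanol the counts, higher and lower, were 11 and 2, 12 and 4, 3 and 1, 1 and 0, 6 and 2, and 2 and 3, in the same order of lists.

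Ethanol was compared with water in tissue next. In colon none of the 30 tested genes was called by edgeR, where 0.00746% of all genes (1 gene) were, and 336 genes, 2 of them collagens, had an unadjusted p under 0.05. DESeq2 called 2 genes and limma-voom none, without a collagen. The fold change was below 0 for 27 of 30 genes, with a median of -0.50 against 0.005 over all genes. Without the first control colon library, 20 of 30 were below 0 and the median was -0.16, and without the 3 libraries with high Hoxb13 19 of 30 were, with a median of -0.19. Col15a1, of the vascular and muscle basement membrane, was at 35.8, 13.3, 18.7 and 21.9 CPM in controls and at 13.0, 7.33, 9.89 and 15.4 CPM with ethanol (-0.96 ± 0.38, adjusted p = 1), and the groups overlapped. Col1a1 (-0.85 ± 0.53), Col1a2 (-0.61 ± 0.39), Col3a1 (-0.55 ± 0.67) and Col4a1 (-0.47 ± 0.41) were not called either.

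In jejunum tissue none of the 30 was called (0% of all genes, and 1462 genes with 1 collagen at an unadjusted p under 0.05). The median was -0.01 against 0.14 over all genes, with 16 values below 0. That collagen was Col7a1, with -2.47 ± 0.61 and an adjusted p of 0.188 with edgeR. DESeq2 called it lower (-2.61 ± 0.59, adjusted p = 0.0171) together with 30 other genes, 0.231% of those tested, and over the other settings its adjusted p ran from 0.114 to 0.696. The ranges of Col7a1 given above were apart between the treatments in colon, where it was the 1 tested collagen of which this was so (0.903% of all genes apart and lower, 2.39% higher, 3.29% either way), and in jejunum (1.78% lower, 7.47% either way). Its difference between the segments, tested as an interaction, was 1.21 ± 0.89 (adjusted p = 0.89). Col20a1, another fibril-associated collagen, had 0.726, 0 and 1.32 CPM in control jejunum and 1.43, 2.92, 2.81 and 1.84 CPM with ethanol, and Col6a4 had 10.2, 7.30 and 5.96 CPM and 12.4, 11.2, 12.1 and 17.9 CPM. Both were apart and higher with ethanol, as were 5.69% of all genes, and neither was called.

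No tested collagen differed in its ethanol effect between the segments of tissue (0 of 30 called by edgeR, 0% of all genes, with 856 genes and 1 collagen at an unadjusted p under 0.05, and 2 genes called by DESeq2 and none by limma-voom). None of the genes of synthesis, crosslinking, receptors, proteases, partners or TGF-beta signalling was called for ethanol in either segment.

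**Figure D4:**
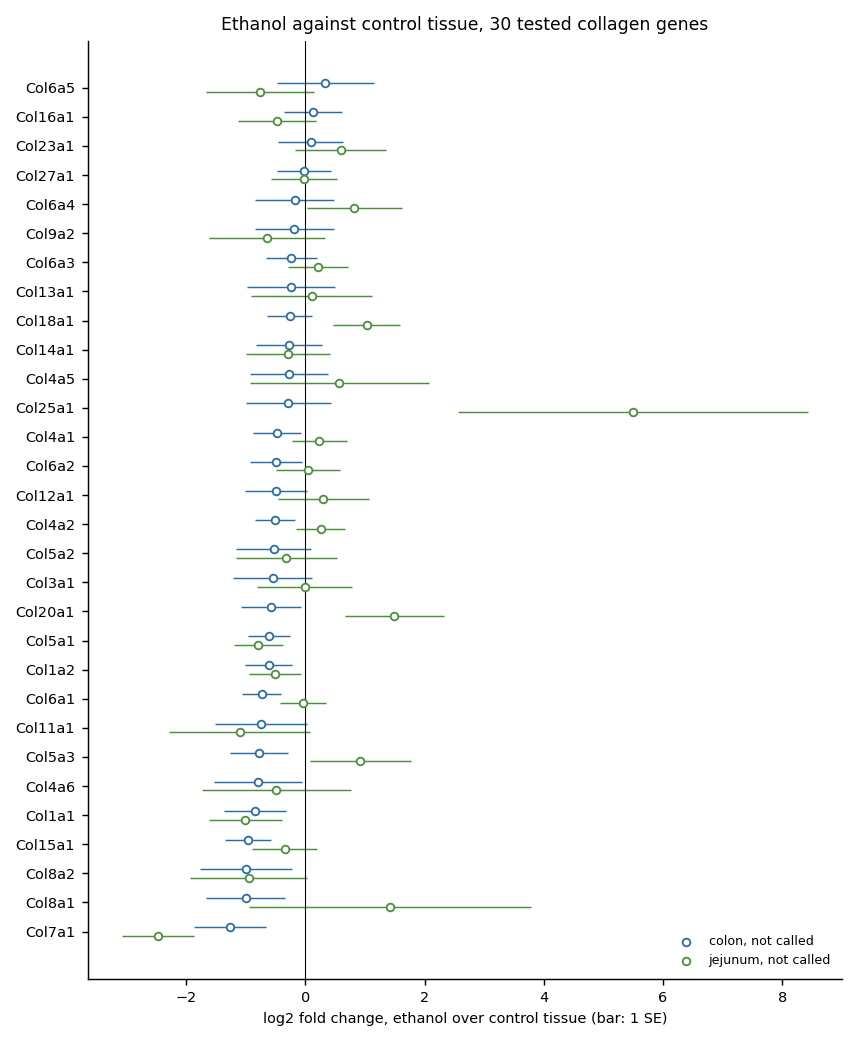
Log2 fold change of ethanol over control tissue (horizontal axis, bars 1 SE) for 30 collagen genes in colon (blue) and jejunum (green). No collagen was called. Of the colon values 27 of 30 lie below 0, Col7a1 lies lowest in both segments, and the jejunum value of Col25a1 is against a group without counts.

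In the 8 jejunum organoid libraries no collagen gene reached a mean of 1 CPM, and 18 of 44 had no count at all. In the 4 colon organoid libraries 16 reached a mean of 5 CPM. The 6 highest over all organoids were Col27a1, Col18a1, Col4a1, Col4a2, Col1a1 and Col7a1.

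Col27a1 was at 165 and 138 CPM in control and at 126 and 40.9 CPM in ethanol colon organoids, and at 0 to 0.490 CPM in jejunum organoids. Col18a1 was at 108 and 99.0 CPM and at 54.9 and 9.66 CPM, against 0 to 1.38 CPM in jejunum organoids. Col4a1 was at 72.2 and 104 CPM and at 39.0 and 40.1 CPM, and Col4a2 at 64.3 and 92.9 CPM and at 31.6 and 37.9 CPM, against at most 1.61 and 0.582 CPM. The type IV pair was thus seen in all 4 colon organoid libraries. Col4a5 was at 7.37 and 41.6 CPM and at 11.6 and 17.8 CPM, with no count in jejunum organoids.

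Other genes were seen in 1 control library and not in the other. Col7a1 was at 0 and 80.7 CPM in control and at 7.03 and 1.49 CPM in ethanol colon organoids. Col1a1 was at 0 and 99.0 CPM and at 4.57 and 6.69 CPM, Col6a3 at 0 and 47.7 CPM and at 0 and 3.72 CPM, and Col12a1 at 0 and 44 CPM and at 2.81 and 0.743 CPM. Col2a1 was at 15.7 and 0 CPM and at 3.87 and 10.4 CPM. The second control library had the lowest depth of the organoids, 818240 counts outside Rn45s or 1.22 CPM a count. Control means of these genes are carried by 1 library.

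Markers of other cell types were read in the same colon organoid libraries. Dcn, a defining fibroblast gene, had 0 counts in 3 of the 4 libraries and at most 5.27 CPM, against 173 to 808 CPM in colon tissue. Pdgfra reached 3.44 CPM, the smooth muscle genes Acta2 and Myh11 5.95 and 14.1 CPM, and the endothelial gene Pecam1 0.491 CPM. The fibroblast marker sum was 67.9 to 158 CPM in colon and 65.0 to 89.7 CPM in jejunum organoids, with Dcn, Lum, Fbln1 and Clec3b at 0 in control and Lum and Clec3b at 0 in ethanol colon organoids. Of 4 mesothelial markers, Msln was at 1134 and 422 CPM and at 408 and 326 CPM in colon organoids and at most 7.56 CPM elsewhere, and Upk3b had no count there. The smooth muscle sum was 100.2 to 166 CPM in colon organoids, with Tagln, Actg2 and Synpo2 at 0 in controls. The sum of 8 endothelial markers was 34.4 and 0 CPM in control and 26.7 and 31.2 CPM in ethanol colon organoids, against 40.2 to 157 CPM in colon tissue, with Egfl7 at 33.4 CPM in the first control library. The sum of 4 pericyte markers was 105.6 and 11 CPM in controls and 14.4 and 14.9 CPM with ethanol, against 47.7 to 223 CPM in colon tissue. All of the 105.6 CPM was Notch3, and Rgs5 was at 0 in all 4 libraries. The sum of 4 glial markers was 6.88 to 29.7 CPM, against 22.6 to 69.3 CPM in colon tissue. The part of any of these cells in the collagen levels was not tested.

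Colon against jejunum organoids gave 18 higher and 0 lower of 24 tested genes in controls (49.4% of 13170 genes called by edgeR, 23.8% higher and 25.6% lower) and 18 higher and 0 lower with ethanol (45.5%, 26.2% higher and 19.2% lower). All 24 passed the filter through the colon libraries, since none would pass in jejunum organoids alone, so that the direction is set by the filter and the counts are no support in themselves. With edgeR the log2 difference was 8.31 ± 0.76 for Col4a2 (adjusted p = 8.94e-06) and 8.94 ± 0.70 for Col27a1 (3.61e-06) in controls. With ethanol it was 7.22 ± 0.77 for Col4a2 (2.67e-05) and 9.74 ± 0.80 for Col27a1 (5.37e-06). These folds stand against 1 to 4 counts in jejunum organoids: the ratio of pooled CPM was 447 (95% counting interval 151 to 2183) for Col4a2 in controls, and 179 (59.9 to 877) for Col4a2 and 1575 (281 to 62360) for Col27a1 with ethanol. Against jejunum groups without a count, Col4a5 was at least 151-fold higher in controls and 78.2-fold with ethanol, Col6a3 at least 147-fold and Col12a1 at least 135-fold in controls, Col2a1 at least 48.4-fold and 37.9-fold, and with ethanol Col6a5, of type VI, at least 45.1-fold and Col23a1, a membrane-bound collagen, at least 34.9-fold.

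With the donor number as a block, only 4 and 3 genes were called, and DESeq2 called 11 and 11. Col2a1 in controls rests on 1 library: without the first control colon organoid library it had no count and its difference was 0. Col6a3 and Col12a1 in controls rest on the second, since the first had no count of either, and the call of Col6a3 held in 4 of 10 alternatives. Without the second ethanol colon organoid library, 8 genes were called with ethanol.

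Ethanol colon organoids were compared with control colon organoids. Col19a1, a fibril-associated collagen, was at 0 and 0 CPM in controls and at 10.5 and 17.1 CPM with ethanol, at least 13.2-fold higher (adjusted p = 0.0173 with edgeR). Col8a1 was at 0 and 0 CPM and at 5.98 and 11.2 CPM, at least 8.15-fold higher (0.0436). These were the 2 called of 24, none was lower, and 17.1% of all genes were called (12.4% higher, 4.74% lower). Both passed the filter through the ethanol colon libraries, since jejunum organoids held at most 2 counts of either in a library. They could thus be called only as higher, so that the 2 calls are no support in themselves. Of the 24 fold changes, 19 were below 0, with a median of -0.74 against 0.15 over all genes. The most abundant genes were not called. With edgeR, Col18a1 had -1.37 ± 0.85 (adjusted p = 0.303), Col4a2 -0.90 ± 0.66 (0.389), Col4a1 -0.87 ± 0.70 (0.435) and Col27a1 -0.58 ± 0.58 (0.549).

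With 2 libraries a group these calls depended on the fit. With the donor number as a block, or with the colon organoids fitted alone, none was called, without the filter on low counts only Col19a1 was, and DESeq2 also called Col19a1 alone (adjusted p = 0.0398). Limma-voom called Col8a1, Col16a1 and Col19a1 higher and Col14a1 lower. The share of detected genes with fewer than 5 counts was 5.63 and 7.27% in the control colon organoid libraries, 12.3 to 13.4% in the ethanol ones and 10.1 to 22.8% in the other 23 libraries, so that low counts were rarer in the controls. The sum of 6 immune markers was 18.3 and 90.9 CPM in the control and 126 to 465.6 CPM in the ethanol colon organoids, with Cd3e at 0 in both and Ptprc at most 21.4 CPM. The part of either in the zeros of Col19a1 and Col8a1 was not tested. Without the second ethanol colon organoid library no collagen was called, and without the first control library 7 were. Col8a1 was not called when any 1 of the 4 colon organoid libraries was left out, and Col19a1 was called in 3 of these 4 fits.

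Genes of the related lists were counted in ethanol against control colon organoids, where 17.1% of all genes were called (12.4% higher, 4.74% lower). Synthesis and secretion had 0 called of 13, crosslinking 0 of 3 and TGF-beta signalling 0 of 11. Among 16 partners Nid2 and Dst were higher and Lama5 was lower (-1.94 ± 0.43, adjusted p = 0.0106 with edgeR). Itga1, a collagen receptor chain, was the 1 higher of 6 receptors, and Ctsk, a protease that cuts collagen, the 1 lower of 6 proteases and inhibitors. In jejunum organoids edgeR called no gene for ethanol (0% of all genes, 150 genes and 1 collagen at an unadjusted p under 0.05, 1 gene by DESeq2 and 0 by limma-voom). The ethanol effect did not pass the test of a difference between the segments for any of the 24 collagens (9.64% of all genes called, 7.56% higher and 2.08% lower, and 4 collagens by limma-voom, where 13.2% of all genes were called).

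Organoids were set against tissue of the same segment and treatment last. In control colon, 5 of 35 tested genes were higher and 15 lower in organoids (45.1% of 15034 genes called by edgeR, 16.5% higher and 28.6% lower). Basement membrane zone genes had 3 higher and 2 lower of 9, fibrillar genes 2 and 5 of 10, and other types 0 and 8 of 16. Only 24 of the 35 would pass the filter through organoid libraries. The rest, among them Col5a1, Col6a1 and Col6a2, entered through tissue. Col2a1 and Col4a3 did not pass in the fit of tissue and entered through organoids. For such genes the direction is set by the filter, so that these counts are no support in themselves. With edgeR the higher ones were Col27a1 (1.74 ± 0.54, adjusted p = 0.0114), Col18a1 (1.61 ± 0.58, 0.0258), Col7a1 (4.11 ± 1, 0.00174), Col4a3 (5.15 ± 1.58, 0.0119) and Col2a1, which had no count in tissue and was at least 48.3-fold higher. Col4a3, a type IV chain, had 2 counts in control colon tissue (ratio of pooled CPM 64.7, 95% counting interval 15.7 to 571), and an exon of C430014B12Rik lies in its last 1000 bases, so that its reads are uncertain. Col4a2 was not called (-0.86 ± 0.47, 0.136) and Col4a1 was lower (-1.52 ± 0.54, 0.0244). With edgeR the call of Col4a1 was lost with the donor block (adjusted p = 0.083) and without the first (0.132) or second (0.0759) control colon organoid library or the first control colon tissue library (0.0771).

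The genes without a count in control colon organoids were lower by bounds of at least 54.5-fold for Col16a1, 50.2-fold for Col8a1, 21.3-fold for Col15a1 and 15.3-fold for Col5a3. Such bounds, here and elsewhere, cover counting error only and not the spread between libraries. Low counts were rarer in the control colon organoid libraries, as given above, and Col1a1 had 0 counts in the first and 81 in the second. Col3a1 was lower by -6.11 ± 1.23 (adjusted p = 0.000628 with edgeR) and Col1a2 by -5.05 ± 0.78 (1.74e-05). The 3 type VI chains Col6a1, Col6a2 and Col6a3 were lower by -4.69 ± 0.84, -4.42 ± 0.94 and -3.31 ± 1.08. With the donor number as a block, 1 gene was higher and 11 were lower, and without the first control colon organoid library 13 were called. Leaving out that library turned Col2a1 to 0 and Col4a3 to -1.99, and leaving out the second turned Col7a1 to -5.74. The adjusted p of Col27a1 was 0.0836 and that of Col18a1 0.101 without the first.

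With ethanol, 2 of 35 were higher in colon organoids and 15 lower (33.6% of all genes called, 14.9% higher and 18.7% lower). The limit of the filter given for controls holds here too, and neither Col19a1 nor Col2a1 passed in the fit of tissue. Col19a1 was higher by 7.45 ± 1.37 (adjusted p = 0.000216 with edgeR), against 1 count in tissue (ratio of pooled CPM 276, 47.5 to 11113), and Col2a1 was at least 51.9-fold higher. Col6a1 was at least 107-fold lower, Col6a2 79.5-fold and Col14a1, a fibril-associated collagen, 23.1-fold. Col5a1 was lower by -7.09 ± 1.11 (4.54e-05), with 1 count in organoids (ratio of pooled CPM 154, 95% counting interval 27.6 to 6101). Col6a3 was lower by -6.70 ± 1.44 (0.00222), Col3a1 by -6.21 ± 1.27 (0.0011), Col4a1 by -1.95 ± 0.56 (0.00903) and Col4a2 by -1.28 ± 0.48 (0.0429). The call of Col4a1 was lost without the first or without the second ethanol colon organoid library, and that of Col4a2 held in 5 of 14 alternatives and in 1 of 6 fits without a single library. Without the second ethanol colon organoid library 11 were called.

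**Figure D5:**
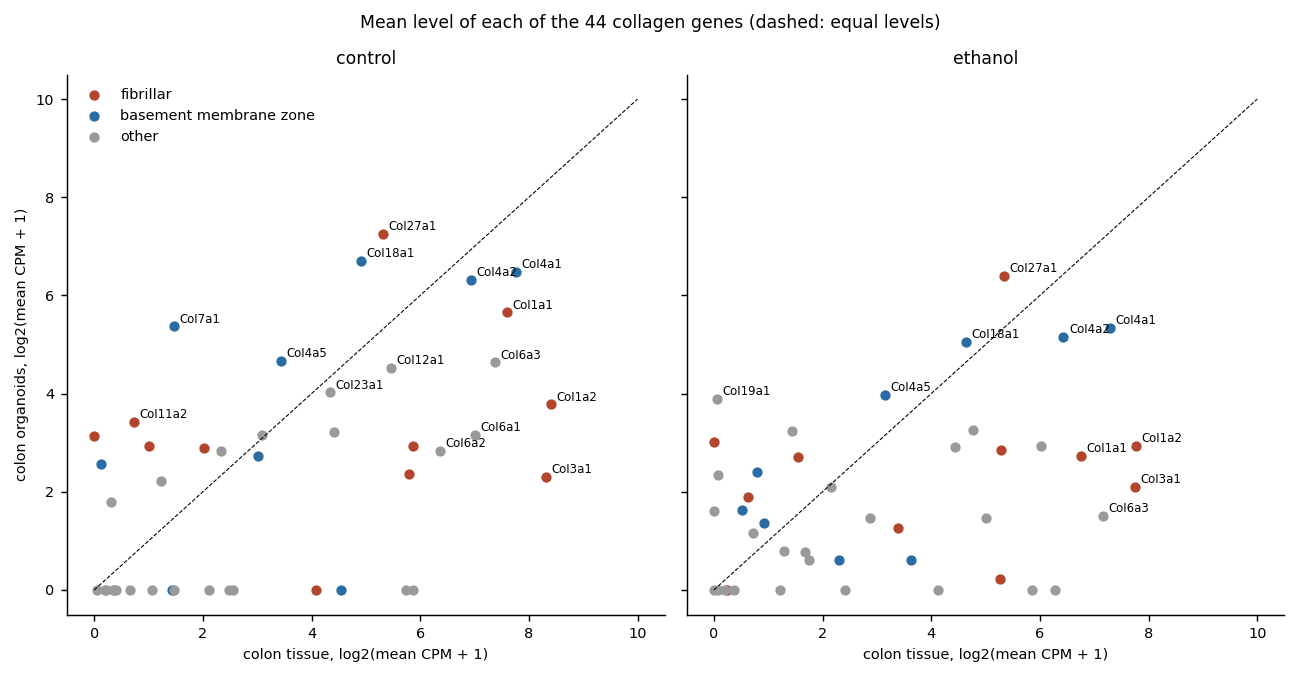
Mean level of the 44 collagen genes in colon organoids (vertical axis) against colon tissue (horizontal axis), both as log2(mean CPM + 1), in controls (left) and with ethanol (right), coloured by class, with the dashed line at equal levels. Col27a1 and Col18a1 lie above the line in both (called in controls only), and Col1a2, Col3a1 and Col6a3 lie far below it.

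In jejunum, 0 genes were higher in organoids and 29 of 35 lower in controls (51.8% of all genes called, 24.2% higher and 27.6% lower), and 0 and 30 with ethanol (53.5%, 22.7% higher and 30.8% lower). Since no collagen would pass the filter in jejunum organoids alone, all 35 entered through tissue or colon organoids, and these counts are no support in themselves. In controls Col6a3 was at least 213-fold, Col14a1 64.2-fold and Col5a2 53.9-fold lower, and Col5a1 was lower by -7.94 ± 0.82 (adjusted p = 2.78e-08 with edgeR), Col4a2 by -7.44 ± 0.67 (1.45e-09), Col4a1 by -6.09 ± 0.61 (9.21e-09) and Col3a1 by -6.45 ± 1.11 (8.14e-05). With ethanol Col6a3 was at least 197-fold, Col6a1 190-fold, Col3a1 171-fold, Col5a1 87.0-fold and Col23a1 38.9-fold lower. In organoids Col5a1 had 2 and Col4a2 3 counts in controls (ratios of pooled CPM 266, 95% counting interval 71.9 to 2228, and 162, 53.8 to 799.8). With ethanol Col4a2 had 3 counts and Col4a1 1 count, and the ratios were 182 (61.9 to 883) and 1031 (185 to 40756). Whether organoids differ from tissue more in jejunum than in colon was not tested.

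Genes around the collagens were counted in colon organoids against colon tissue in the same fit, where 16.5% of all genes were called higher and 28.6% lower in controls, and 14.9% and 18.7% with ethanol. Of 25 partners, 3 were higher and 11 lower in control colon organoids than in tissue. Among the higher ones were the basement membrane genes Lama5 (3.24 ± 0.38, adjusted p = 3.53e-07 with edgeR) and Agrn (3.19 ± 0.34, 7.72e-08), and the lower ones included Sparc (-6.67 ± 1.02, 2.01e-05). Of 22 genes of synthesis and secretion 1 was higher and 8 were lower, with Serpinh1, the collagen chaperone, at -6.13 ± 1.12 (0.00014). The collagen receptor Ddr1 was higher (1.76 ± 0.30, 5.07e-05) as the 1 of 9 receptors, with 3 lower. Crosslinking enzymes had 0 higher and 2 lower of 5, proteases and inhibitors 2 and 3 of 14, led by Mmp7 (6.28 ± 0.90, 5.44e-06), and TGF-beta signalling 4 and 5 of 12. Medians were -1.64 for partners, -0.35 for synthesis, 0.26 for receptors, -2.54 for crosslinking, -0.36 for proteases and -0.35 for TGF-beta signalling, against -0.34 over all genes. With ethanol the counts, higher and lower, were 4 and 10 for partners, 0 and 7 for synthesis, 3 and 3 for receptors, 0 and 3 for crosslinking, 2 and 2 for proteases and 1 and 2 for TGF-beta signalling.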

How the data were processed

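Whole counts of 3' tags per gene were used as the authors deposited them in 1 table of 27 libraries, with values in a unit of raw counts. Per the submitters' processing notes, reads were processed with Trimmomatic 0.32, BWA and HTSeq on mm10, with limma and edgeR named as further tools, and no source used here says whether counting used strand. Of the 23420 genes, Rn45s, 18.3 to 84.3% of a library, was left out before CPM, library sizes and tests. Without molecular identifiers, counting intervals and floors of 3 counts cover counting error only.

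Group comparisons used edgeR 4.0.16 (robust quasi-likelihood F-test, TMM, filterByExpr by group, R 4.3.3), with Benjamini-Hochberg adjustment over all genes kept and a call at an adjusted p under 0.05. The 15 tissue, 12 organoid and all 27 libraries were fitted apart, and the fits were tested on simulated data. Alternatives were DESeq2 1.42.0, limma-voom 3.58.1, other scaling, no filter, the compared groups alone, a block by donor number and leaving out each library. Every collagen gene could be named. Values per library are given for the 12 highest in tissue, the 6 highest in organoids, those called for ethanol and, in other comparisons, the 6 called with the largest fold each way that had a mean of at least 5 CPM in a group. The genes, lists and comparisons were chosen with earlier results of these data known.

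The donor numbers recur in every group and under both treatments. Between the deviations of same-numbered libraries over 11117 genes, the correlation was above 0.1 in 3 of 4 pairs of ethanol and control colon tissue, 2 of 3 of jejunum tissue and 2 of 4 of jejunum organoids. It was above 0.1 in 1 of 3 and 1 of 4 pairs of colon and jejunum tissue, and in 0 of 3 and 1 of 4 pairs of organoids and tissue of the jejunum. Between ethanol and control, libraries correlated best with their own number in 6 of 6 cases in jejunum and 4 of 8 in colon tissue. In organoids this was so in 4 of 8 cases in jejunum. In colon organoids it was so in 4 of 4 cases, but r was only 0.0146 in each of the 2 pairs. With 2 libraries a group the deviations mirror each other, so that these 4 cases rest on the sign of 1 correlation and show nothing more. The highest correlation of a pair was 0.586, in colon tissue. The main test has no block, and whether same-numbered libraries share a part in the ethanol comparisons was not tested. RefSeq promoter windows on GRCm38.p6 were matched by symbol.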

Additional observations from a re-analysis of the deposited data

Results flagged for a closer look

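In groups of 4 libraries, a value is named here when its gap to the nearest library, over the range of the group, passed Dixon's 95% critical value of 0.829. This was tested for 80 group values of collagens with a mean of at least 10 CPM, of class sums and of ratios, and 20 passed. For independent values with a normal spread, chance alone gives about 1 in 20. The 80 values are not independent, since the genes varied together and the sums hold the same genes. Of the 20 that passed, 16 were the highest value of control colon tissue and came from 1 library, the first. There the fibrillar chains Col1a1 (424 CPM), Col1a2 (671 CPM), Col3a1 (684 CPM), Col5a1 (116 CPM), Col5a2 (126 CPM) and Col5a3 (29.1 CPM) stood out. So did Col4a1 (387 CPM), Col6a3 (279 CPM), Col8a1 (145 CPM), Col12a1 (88.2 CPM), Col14a1 (54.7 CPM), Col16a1 (117 CPM) and Col23a1 (43.8 CPM). Summed levels there were 2122 CPM for fibrillar genes, 1113 CPM for other types and 3927 CPM for all 44. In the first ethanol colon tissue library Col12a1 (70.8 CPM) and Col27a1 (72.6 CPM) were far above the other 3. Both libraries also had the highest smooth muscle and fibroblast sums of their groups, and the part of these in the levels was not tested.

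In ethanol jejunum organoids the fibrillar sum of the third library was 2.64 CPM, above the other 3. That library held 16 collagen counts, each worth 0.330 CPM, so that this value is near the floor. The ratio of Col1a1 to Col1a2 in the second ethanol jejunum tissue library was 0.244 (22 against 90 counts), below the other 3.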

How the results depend on the processing

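Of the values of single genes under the alternatives, 1122 kept their direction and side of the threshold, 160 kept their direction and lost the call, and 4 turned. Without the first control colon organoid library, Col2a1 went from its fitted value to 0 against jejunum organoids and to 0 against colon tissue, and Col4a3 to -1.99 against colon tissue; without the second they were 8.64, 8.73 and 6.04. Col7a1 against colon tissue was -5.74 without the second and 5.12 without the first.

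Counts of called collagens moved by over 1.5 times as follows. For colon against jejunum tissue in controls, limma-voom called 10 (16 by edgeR), and leaving out single libraries gave 7 to 18, and with ethanol 5 to 15 (12). DESeq2 called 1 collagen for ethanol in jejunum tissue. For ethanol in colon organoids (2), DESeq2 called 1, limma-voom 4, no filter 1 and the compared groups alone 0, and single libraries left out gave 0 to 7. Limma-voom called 4 for the difference of the ethanol effect between the organoids. For colon against jejunum organoids (18 and 18), DESeq2 called 11 and 11, the groups alone 7 in controls, and single libraries left out gave 13 to 17 and 8 to 15. For organoids against tissue, the groups alone gave 15 (29) in control and 17 (30) in ethanol jejunum, and single libraries left out gave 13 to 19 (20) in control and 11 to 17 (17) in ethanol colon. The causes were not tested.

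With the donor number as a replicate block, called collagens numbered 0 for ethanol in colon organoids, 4 and 3 for colon against jejunum organoids in controls and with ethanol, and 12 for organoids against tissue in control colon. The block moved no other count by over 1.5 times.

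Scaled by TMM factors, the fibrillar sum of control colon organoids was 203 CPM (259 unscaled), and with a pseudocount of 5 CPM the median correlation within the basement membrane zone was 0.467 (0.331). Leaving out the 3 libraries with high Hoxb13, an alternative chosen after seeing the data, gave 16 called for colon against jejunum tissue in controls, 14 with ethanol and 0 for ethanol in colon. Depth limits control jejunum tissue and colon organoids most, where 1 count is worth up to 1.46 and 1.22 CPM.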
